A study of Homo sapiens with 6 samples.

Results

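The histone genes of the HIST clusters were followed across the RNA-seq of LN229 cells, an established human glioblastoma line, with (WT, PARP3+/+) or without PARP3 (PARP3-/-). PARP3 is a DNA-strand-break-dependent ADP-ribosyltransferase. Every protein-coding gene whose symbol starts with HIST1H, HIST2H, HIST3H or HIST4H was taken, which gave 68 members among the 33841 genes measured. They comprised 6 H1, 16 H2A, 18 H2B, 13 H3 and 15 H4 genes. Each genotype was represented by 3 biological replicates numbered 1 to 3, grown in the same medium at normal oxygen with no further treatment. The PARP3-/- cells derived from CRISPR/Cas9 editing and single-cell cloning, and the sources do not state which clone was sequenced, so a clonal difference and the loss of PARP3 cannot be told apart. The deletion is described as running from exon 2 to exon 9 in the series design and as guided to exons 2 and 5 in the methods. A rescued clone was not analysed here.

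The core histones H2A, H2B, H3 and H4 form the protein spool of the nucleosome, and H1 binds the linker DNA between nucleosomes. Their replication-dependent genes sit in clusters, have no introns in their coding part, and are transcribed mainly in S phase, when newly made DNA has to be packed. Their mRNAs mostly end in a conserved stem-loop in place of a poly(A) tail, and the stem-loop binding protein SLBP holds it through processing, translation and decay. The libraries were prepared from total RNA after removal of ribosomal RNA, which keeps mRNAs without a poly(A) tail. GEO's molecule label reads polyA RNA instead, and the protocol was followed here.

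The stem-loop sequences are shown because they are the feature that all members shared and that the rule did not use. A perfect or near-perfect match to the element was found within the 100 bases after the stop codon in 68 of 68 members, against 72 of all 19919 protein-coding genes with a known stop codon (0.361%). The remaining 4 genes were themselves histone genes, H2AX, H3C4, H3-7 and H2AC18. The following examples are read from hg38, 5′ to 3′, with the stem-loop in capitals and its flanks in lower case.
HIST1H1D (chr6:26234209-26234237, minus strand): taaacGGCTCTTTTCAGAGCCacccacag
HIST1H1T (chr6:26107409-26107437, minus strand): ccaaaGGCTCTTTTAAGAGCCacccacat
HIST3H2A (chr1:228457361-228457389, minus strand): ataaaGGCTCTTTTCAGAGCCacctacta
HIST2H2AC (chr1:149887386-149887414, plus strand): ccaaaGGCTCTTTTTAGAGCCacccaagt
HIST1H2AK (chr6:27837877-27837905, minus strand): aaaaaGGTTCTTTTCAGAGCCacctactt
HIST1H2BI (chr6:26273387-26273415, plus strand): ccaaaGGCTCTTCTAAGAGCCacccatgt
HIST1H3B (chr6:26031589-26031617, minus strand): ccaaaGGCTCTTTTCAGAGCCacccactt
HIST1H4C (chr6:26104312-26104340, plus strand): ccaaaGGCCCTTTTCAGGGCCgctcacaa
HIST1H4L (chr6:27873145-27873173, minus strand): tcaaaGGCCCTTCTCAGGGCCacccatga
The first stem bases set the H4 members apart from the other classes. All 15 H4 members began with GGCCC, whereas none of the other 53 members did. In 38 members the stem-loop was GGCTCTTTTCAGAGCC, the commonest form in H1, H2A, H2B and H3. HIST1H2AK alone carried GGTTC as its first stem bases. The element lay between 22 bases (HIST1H4J, HIST1H4K) and 67 bases (HIST2H2AA4) after the stop codon.

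Promoter sequences from RefSeq (GRCh38.p14, 250 bases before to 50 after the start) could be matched for 58 of the 68 members. Both strands were searched for 3 motifs, none of which contains another. The TATA box letters TATAAA were present in 39 of 58 members and in 11.95% of all 27305 promoters. The CCAAT box was present in 48 of 58 members against 35.7% of all promoters, and the H4 promoters stood out with 3 of 13. The octamer ATTTGCAT, the binding motif of POU-domain factors such as OCT1, was present in 20 of 58 members against 1.8% of all promoters, and those 20 were H2A (11 of 15) and H2B (9 of 13) genes. H2A and H2B genes often lie head to head, so that one stretch can count for a pair of genes. A match is a match of letters and not a site shown to be bound. The promoters below, with motif matches in capitals, belong to the H1 gene that differed most between replicates, to the H1 gene that differed least, and to an H2B gene with the octamer.
HIST1H1A (chr6:26017738-26018037, minus strand): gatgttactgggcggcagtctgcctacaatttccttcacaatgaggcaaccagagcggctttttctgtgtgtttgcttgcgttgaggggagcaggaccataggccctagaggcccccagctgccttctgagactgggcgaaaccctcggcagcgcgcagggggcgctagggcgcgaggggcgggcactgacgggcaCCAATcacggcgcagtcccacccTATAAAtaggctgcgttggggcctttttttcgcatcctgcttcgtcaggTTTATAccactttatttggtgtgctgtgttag
HIST1H1D (chr6:26234938-26235237, minus strand): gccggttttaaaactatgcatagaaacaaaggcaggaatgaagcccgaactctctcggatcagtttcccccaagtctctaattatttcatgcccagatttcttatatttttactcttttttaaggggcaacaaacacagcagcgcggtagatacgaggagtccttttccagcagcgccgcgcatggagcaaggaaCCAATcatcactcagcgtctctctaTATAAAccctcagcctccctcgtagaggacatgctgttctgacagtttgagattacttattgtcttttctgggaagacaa
HIST2H2BE (chr1:149886633-149886932, minus strand): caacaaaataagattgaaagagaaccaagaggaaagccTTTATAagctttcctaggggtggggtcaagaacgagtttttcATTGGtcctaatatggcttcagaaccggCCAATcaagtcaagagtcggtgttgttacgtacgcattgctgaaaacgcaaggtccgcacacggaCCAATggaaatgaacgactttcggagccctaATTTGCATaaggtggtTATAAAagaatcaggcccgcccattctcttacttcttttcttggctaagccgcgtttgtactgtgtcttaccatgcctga
HIST1H1A and HIST1H1D both held TATAAA at about the same distance from the start, 31 and 30 bases before it, and CCAAT 54 and 55 bases before it.

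Depth ranged from 29692065 to 46010369 counts per library. PARP3 itself was at 34.9, 22.4 and 24.3 CPM (counts scaled to the library size, with TMM factors) in WT replicates 1 to 3 and at 19.1, 22.5 and 19.5 CPM in PARP3-/- replicates 1 to 3, so the genotypes overlapped and its RNA was not lost (log2 fold change -0.42, SE 0.18, adjusted p = 0.307 in edgeR, 0.0469 with the replicate number as a block). Reads counted over the whole gene do not check a deletion of part of it. Of 10 glioma markers, 8 were present in every library (VIM, NES, CD44, SOX2, NFIA, OLIG2, S100B and EGFR), while SOX9 and GFAP were at 0 to 17 counts. Of 6 measured markers of other cell types, PTPRC, EPCAM, PECAM1, ALB and RBFOX3 were at 0 to 4 counts and MBP at 237 to 385 counts. The libraries stood apart by replicate number as well as by genotype. Over all genes, deviations from the genotype mean correlated between libraries of the same number in all 3 pairs (processing section). These correlations set number 1 apart but did not tell number 2 from 3, and the 2 libraries numbered 1 differed most from the others. Results between genotypes are therefore given with and without this block, and counts of calls also without these 2 libraries.

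Histone cluster genes were among the abundant transcripts. Together the 68 members took 1.06%, 1.58% and 1.37% of all counts in WT replicates 1 to 3 and 0.97%, 1.36% and 1.32% in PARP3-/- replicates 1 to 3. Replicate 1 was the lowest of its genotype in both cases. The summed level was 13259 ± 2869.5 CPM in WT and 12323 ± 2425 CPM in PARP3-/- cells (SD, n = 3), a difference smaller than the spread within either genotype. That spread includes the difference between replicate numbers. In replicates 1 to 3 the level was 10286, 16012 and 13478 CPM in WT and 9556, 14080 and 13333 CPM in PARP3-/- cells. It was lower in PARP3-/- cells at each replicate number, which was not tested. H2B genes contributed 24.6% of the summed level, H2A genes 21.0%, H1 genes 18.9%, H4 genes 18.8% and H3 genes 16.8%. The HIST1 cluster on chromosome 6 (hg38, 25726132 to 27893843, 54 members) supplied 92.9%. HIST2 on chromosome 1 (149782689 to 149887916, 10 members) supplied 6.06%, HIST3 on chromosome 1 (228424845 to 228460470, 3 members) 0.789% and the single HIST4 gene HIST4H4 on chromosome 12 0.247%. Class and cluster shares cover only reads that could be assigned to 1 gene. The coding sequences of HIST2H2AA4, HIST2H3A, HIST2H3C, HIST2H4A and HIST2H4B held no stretch of 50 bases unique in hg38. Reads within them are therefore missing from the HIST2 share and from those of their classes.

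**Figure D1:**
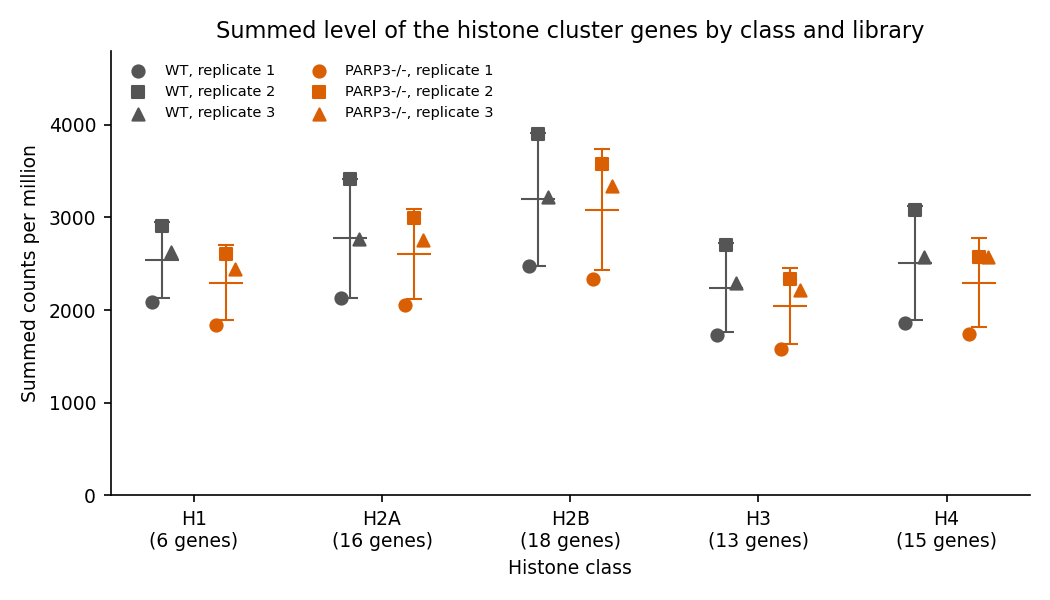
Summed CPM (y axis, from 0) of the members of each histone class (x axis) in each library, with points for single libraries and bars for mean ± SD (n = 3 per genotype). In every class the circle for replicate 1 lies lowest in both genotypes and the WT and PARP3-/- points overlap.

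Single members differed widely in level. A mean above 100 CPM was reached by 40 members, 10 members lay between 10 and 100 CPM, 6 between 0.3 and 10 CPM and 12 below 0.3 CPM. The 10 highest members supplied 42.6% of the summed level. For comparison between genes, levels are given per kb of the median transcript length, since the gene span of 13 members is over 1.5 times that length. On this scale HIST1H3B (H3, 1324 CPM per kb) and HIST1H1B (1321 CPM per kb) were highest, ahead of HIST1H1C (1274), HIST1H4D (1051), HIST1H3C (1021) and HIST1H4C (979.8 CPM per kb). The leading H2A genes on this scale were HIST1H2AE (919 CPM per kb) and HIST1H2AH (831), and the leading H2B genes HIST1H2BK (683), HIST1H2BJ (592) and HIST1H2BB (557 CPM per kb). This order depends on the annotated length, which varies within a class. HIST1H2BG had a higher mean than HIST1H2BK (374 against 260 CPM) but 244 CPM per kb, at 1534 against 381 bases. HIST1H2AG (468 CPM, 2250 bases) and HIST1H4E (516 CPM, 1487 bases) likewise ranked lower per kb (208 and 347). HIST1H1B, one of the main somatic linker histones, read 686, 1098 and 1052 CPM in WT and 574, 1024 and 961 CPM in PARP3-/- replicates 1 to 3. HIST1H3B, which encodes the canonical H3.1, read 431, 709 and 593 CPM in WT and 387, 589.9 and 555 CPM in PARP3-/- replicates 1 to 3. In both genes replicate 1 was well below the other libraries of either genotype, and the genotypes overlapped.

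The 12 members that did not pass the filter on low counts never exceeded 7 counts in a library. They were HIST1H2AA, HIST1H2AM, HIST2H2AA4, HIST1H2BA, HIST1H3G, HIST2H3A, HIST2H3C, HIST3H3, HIST1H4F, HIST1H4G, HIST2H4A and HIST2H4B. HIST1H2AA, HIST1H2BA and HIST3H3 are known as testis histones. These low counts did not all carry the same information, since reads of 50 bases that match several genes were not counted. Of these 12 members, 5 (HIST2H2AA4, HIST2H3A, HIST2H3C, HIST2H4A and HIST2H4B) had no window of 50 coding bases that was unique in hg38. Reads within their coding sequence could therefore not be assigned to them, and bases outside it were not searched. A further 6 (HIST1H2AA, HIST1H2BA, HIST1H3G, HIST3H3, HIST1H4F and HIST1H4G) were unique over their whole coding sequence. HIST1H2AM was overlapped by another gene on the same strand over 88.7% of its exons, and counting in union mode drops reads that fall on more than 1 gene. Over all 68 members, 33 had only unique windows, 13 had under 50% unique windows and 7 had none. HIST1H4J and HIST1H4K, also without a unique coding window, were still counted, at 206 to 463 counts. HIST1H2AD, overlapped over 98.7% of its coding bases, was at 48 to 153 counts. For members with few unique windows the levels are therefore lower limits.

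The first comparison asked whether the loss of PARP3 went along with a different level of histone mRNA. In edgeR's quasi-likelihood test without the block, none of the 56 tested members was lower and none was higher in PARP3-/- cells at an adjusted p under 0.05, while 3.33% of all 17144 tested genes were lower and 1.36% higher. At an unadjusted p under 0.05 there were 3 members, and DESeq2 called 0 as well, with 3 at an unadjusted p under 0.05. The fold changes ran from -0.75 to 0.40 on the log2 scale with a median of -0.11, and 48 of 56 lay below 0, against a median of -0.01 over all tested genes. The median of the members was 0.07 without WT replicate 2 and 0.04 without PARP3-/- replicate 1, and -0.27 without WT replicate 1. The median standard error was 0.22. By class the median was -0.14 for H1, -0.12 for H2A, -0.09 for H2B, -0.14 for H3 and -0.13 for H4. Within the pairs of equal replicate number the median was -0.08, -0.21 and -0.01, and 25 members were below WT in all 3 pairs while 6 were above in all 3, against 25.7% and 27% of all tested genes.

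With the replicate number as a block, the median standard error dropped to 0.06 and 8 members were lower and 2 higher in PARP3-/- cells. These counts have to be set against 12.5% of all tested genes lower and 11.8% higher in the same fit. The difference between members and background was not tested. DESeq2 with the block called 3 of 56 members lower and 1 higher, against 6.71% and 6.28% of the genes with an adjusted p. Without the libraries numbered 1 and without the block, 2 members were lower and 1 higher, against 10.1% and 8.91% of all genes. Without the 2 libraries numbered 1 and with the block, 21 members were lower and 6 higher, against 15.4% and 14.5% of all genes, a fit that rests on 4 libraries.

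The 2 tested genes of the HIST3 cluster were among the 8 members lower with the block. HIST3H2A, an H2A gene on chromosome 1 (228456979 to 228457873) that also makes polyadenylated mRNA, read 45.9, 47.4 and 44.3 CPM in WT and 36.0, 39.8 and 36.3 CPM in PARP3-/- replicates 1 to 3. Every PARP3-/- library was below every WT library (log2 fold change -0.29, SE 0.08, adjusted p = 0.0894 in edgeR, and 0.00215 with the block). HIST3H2BB, the H2B gene next to it, read 64.9, 71.5 and 58.4 CPM in WT and 50.4, 57.0 and 53.5 CPM in PARP3-/- cells, again without overlap (log2 fold change -0.28, SE 0.10, adjusted p = 0.217, and 0.0061 with the block). Both differed little between replicate numbers, unlike most members. The groups did not overlap in 4 members in all, each lower in PARP3-/- cells, while 12% of all tested genes did not overlap in that direction and 10.8% in the other, where no member was found. The other 2 were HIST1H1D and HIST1H3J. HIST1H1D, a somatic H1 gene, read 216, 201 and 199 CPM in WT and 188, 185 and 186 CPM in PARP3-/- cells (log2 fold change -0.14, SE 0.07, adjusted p = 0.433). HIST1H3J had 44 to 52 counts in WT and 17 to 36 in PARP3-/- libraries, and its log2 fold change of -0.75 (SE 0.23, adjusted p = 0.14, and 0.0441 with the block) was the lowest of the members.

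The remaining members called with the block overlapped between genotypes. HIST4H4, the H4 gene on chromosome 12, read 26.3, 40.9 and 35.5 CPM in WT and 22.6, 32.2 and 32.4 CPM in PARP3-/- cells (log2 fold change with the block -0.23, SE 0.06, adjusted p = 0.0177). HIST1H2BN, HIST1H1E, HIST1H4A and HIST1H4L were lower by log2 fold changes between -0.19 and -0.17 in this fit. HIST1H2BI, an H2B gene at a low level, read 7.26, 14.7 and 11.5 CPM in WT and 9.92, 17.9 and 14.7 CPM in PARP3-/- cells, higher within each pair (log2 fold change with the block 0.35, SE 0.08, adjusted p = 0.00663). HIST1H3E was also higher (0.23, SE 0.07, adjusted p = 0.0297 with the block), from 11.5, 21.0 and 19.0 CPM to 13.4, 23.5 and 23.2 CPM. HIST2H2AC, at the other end, read 209, 251 and 220.2 CPM in WT and 222, 234 and 221 CPM in PARP3-/- cells, with a log2 fold change of -0.01 (SE 0.09).

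**Figure D2:**
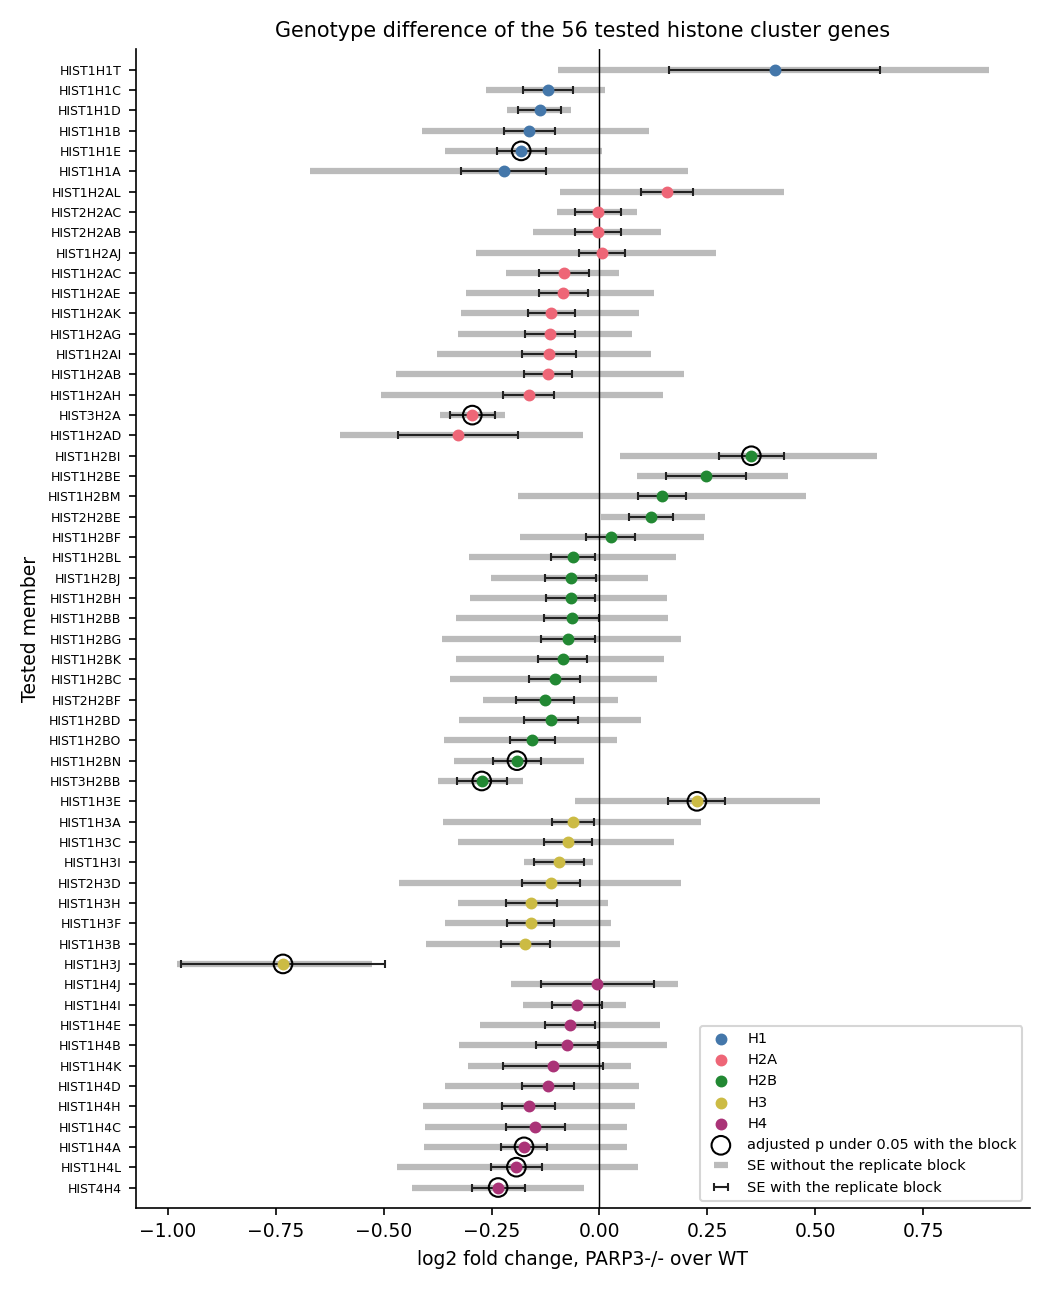
log2 fold change of PARP3-/- over WT (x axis) for the 56 tested members (y axis), ordered within class. Points and thin bars are estimates ± SE with the replicate block, thick grey bars are ± SE of the fit without it, and rings mark the 10 members with an adjusted p under 0.05 with the block, 8 of them to the left of 0.

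The larger difference among the histone genes ran between replicate numbers, a comparison chosen after the data had been seen. In the edgeR model with genotype and replicate number, the replicate term was called for 48 of 56 members, while 35.3% of all tested genes were called. The libraries numbered 2 were above those numbered 1 for 47 members, against 21.5% of all genes, and those numbered 3 were above those numbered 1 for 44 members, against 17.4%. For replicate 3 below replicate 2 no member was called, nor was any gene of the table (0%), and 29 members had an unadjusted p under 0.05 in that contrast. These contrasts share the libraries numbered 1 and are not independent of each other. Each replicate number holds only 1 WT and 1 PARP3-/- library. The median log2 fold change was 0.63 for replicate 2 over 1 and 0.48 for replicate 3 over 1, against -0.01 over all genes in both. The pattern appeared in each genotype on its own. Replicate 1 was the lowest library of its genotype in 48 members in WT, in 51 members in PARP3-/- cells and in 45 members in both, against 42%, 43% and 32.3% of all tested genes. Relative to the mean of replicates 2 and 3, the median of replicate 1 was -0.59 in WT and -0.55 in PARP3-/- cells on the log2 scale. Across the 56 members the differences in the 2 genotypes had a Pearson correlation of 0.837, given as a description since members share libraries and are not replicates.

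**Figure D3:**
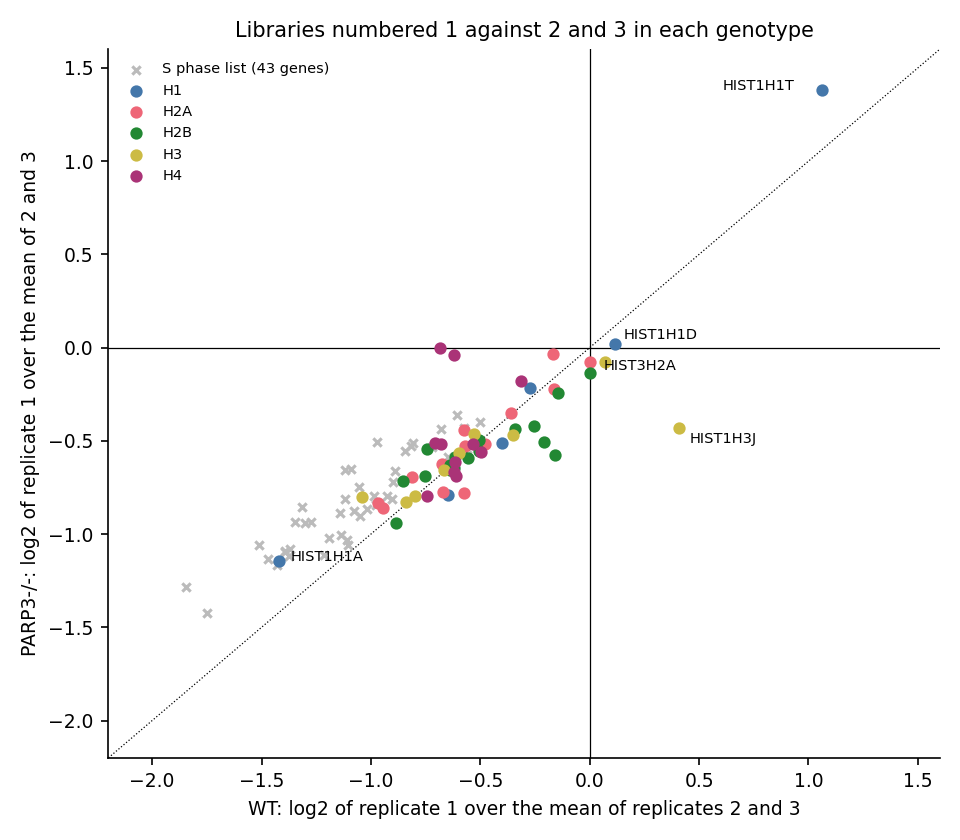
log2 of replicate 1 over the mean of replicates 2 and 3 in WT (x axis) and in PARP3-/- cells (y axis) for the 56 tested members by class and for the 43 genes of the S phase list (grey crosses), with a dotted line of equality. Most members lie at the lower left, with a median of -0.59 in WT and -0.55 in PARP3-/- cells, and HIST1H1T lies in the upper right.

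The size of this difference varied among members. HIST1H1A, a linker histone gene at a low level, differed most, with 3.64, 10.0 and 9.44 CPM in WT and 3.62, 8.37 and 7.62 CPM in PARP3-/- replicates 1 to 3 (replicate 2 over 1, log2 fold change 1.34, SE 0.13, adjusted p = 3.22e-05). HIST1H2AB, HIST1H2BM and HIST1H2AH followed, with log2 fold changes of 1.07, 1.05 and 1.02. HIST2H3D, the only H3 gene of HIST2 that could be tested, read 71.0, 154 and 139 CPM in WT and 73.6, 123 and 133 CPM in PARP3-/- cells, so both libraries numbered 1 were near the same level and the other 4 above. The replicate term was not called for 8 members, HIST1H1D, HIST1H3I, HIST1H3J, HIST2H2AC, HIST3H2A, HIST3H2BB, HIST1H4J and HIST1H4K. HIST1H3I and HIST1H1D are HIST1 genes with fully unique coding sequence. HIST1H3I read 196, 196 and 176 CPM in WT and 171, 178 and 183 CPM in PARP3-/- cells, and HIST1H1D, given above, stayed between 185 and 216 CPM. For HIST1H3I the log2 fold change of replicate 2 over 1 was 0.03 (SE 0.07) and for HIST1H1D -0.07 (SE 0.06). HIST1H1T, the H1 gene of the testis, differed in the opposite direction, with 34, 16 and 21 counts in WT and 42, 24 and 20 counts in PARP3-/- replicates 1 to 3 (log2 fold change of replicate 2 over 1 -1.32, SE 0.29, adjusted p = 0.00435).

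Some members are known to make polyadenylated mRNA beside the stem-loop form. For the 10 tested genes of this kind the median of replicate 2 over 1 was 0.44, with 9 called higher, and for the other 46 tested members it was 0.66, with 38 called higher and 1 lower. The 2 groups were not tested against each other. Among the 10, HIST3H2A had the smallest log2 fold change (0.09, SE 0.06). HIST1H1C (0.35, SE 0.07), HIST1H2AC (0.31, SE 0.07), HIST1H2BE (0.31, SE 0.11) and HIST2H2BE (0.30, SE 0.06) had values of about the same size. Those of HIST1H2BJ (0.53), HIST1H2BD (0.62), HIST1H2BC (0.72), HIST1H4H (0.73) and HIST1H2BK (0.73, SE 0.07) were larger. The octamer printed above for HIST2H2BE was also present in the promoters of HIST1H2AB and HIST1H2BM, whose differences were among the largest (1.07 and 1.05). Those of HIST2H2AC (0.17) and HIST1H2AC (0.31) held it too, and that of HIST1H1A (1.34) did not. A link between the motif and the replicate difference was not tested.

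Genes of DNA replication had the same direction. All 43 tested genes of a list of S phase genes were called higher in replicate 2 than in replicate 1 (21.5% of all genes). Their median log2 fold change was 1.02. All 43 were also called higher in replicate 3 over 1 (17.4% of all genes), with a median of 0.90. PCNA, the sliding clamp of the replication fork, read 175, 499 and 417 CPM in WT and 196, 428 and 409.9 CPM in PARP3-/- cells. CCNE2, which encodes cyclin E2, had a log2 fold change of 1.65 (SE 0.13) in replicate 2 over 1. The summed level of this list was 3595 CPM in WT and 4387 CPM in PARP3-/- replicate 1, and between 6973 and 7957 CPM in the other 4 libraries. In a list of 20 G2 and mitosis genes, 19 were called higher in replicate 2 than in 1 (21.5% of all genes), with a median of 0.65. Other RNAs without a poly(A) tail did not share the direction. Of 14 tested (19 of 27 listed were in the table), 0 were higher and 8 lower in replicate 2 over 1 (18.9% of all genes were lower), among them the nuclear RNA MALAT1 at -1.03 (SE 0.08). Abundant polyadenylated housekeeping mRNAs were split, with 5 of 11 higher and 2 lower, against 21.5% and 18.9% of all genes. The part of cell cycle distribution, RNA composition or culture in the replicate difference was not tested. In bulk samples, fewer cells in S phase and less histone mRNA per cell cannot be told apart.

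**Figure D4:**
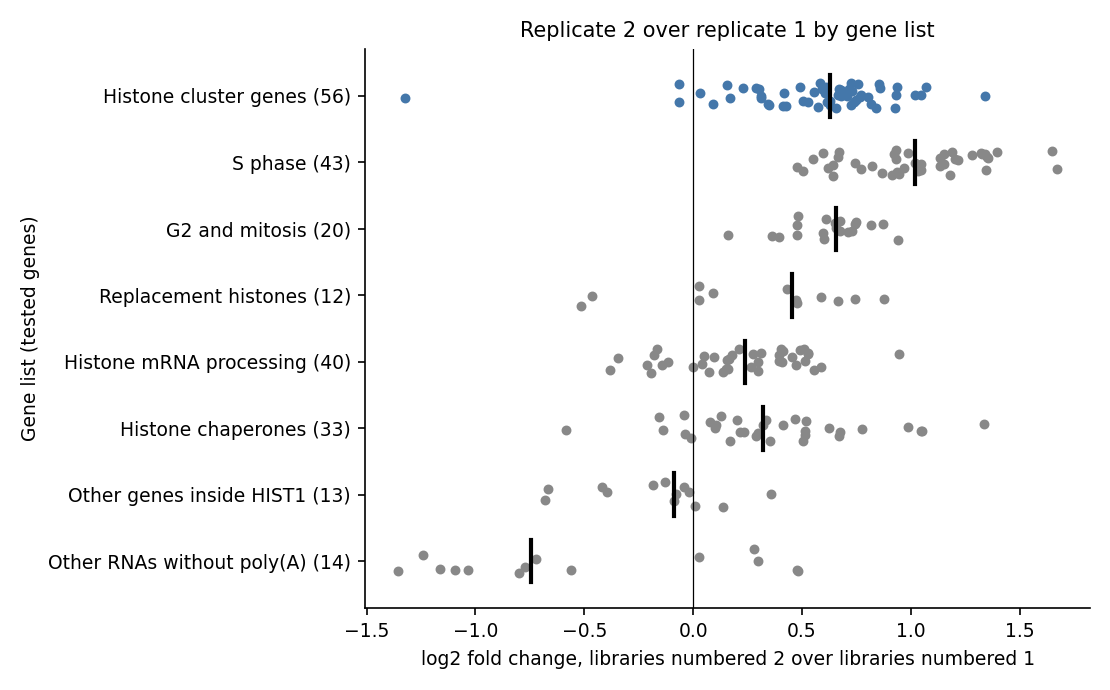
log2 fold change of the libraries numbered 2 over those numbered 1 (x axis) for the tested genes of 8 gene lists (y axis, jittered), with black bars at the medians. Histone cluster genes (median 0.63) and S phase genes (median 1.02) lie mostly to the right of 0, and other RNAs without a poly(A) tail (median -0.75) mostly to the left.

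Between genotypes the medians of the histone genes and of the S phase list had opposite signs, a difference that was not tested. With the block, 12 of 43 S phase genes were higher and 1 lower in PARP3-/- cells, against 11.8% and 12.5% of all genes. Their median log2 fold change was 0.10, whereas the median of the histone members was -0.11. MCM7, a subunit of the replicative helicase, had 0.26 (SE 0.06, adjusted p = 0.00975 with the block) and CDC25A, a phosphatase that activates cyclin-dependent kinases, was the 1 gene lower, at -0.28 (SE 0.07, adjusted p = 0.0188 with the block). Without the block 0 of 43 were called in either direction. In replicate pair 1 the S phase median was 0.28 and that of the histone members -0.08, and in pair 2 they were -0.05 and -0.21. None of the 20 G2 and mitosis genes was called in these 2 fits, but without the libraries numbered 1, 7 were lower in PARP3-/- cells (10.1% of all genes), and 9 with the block as well (15.4% of all genes), with 0 higher in both. Of the S phase genes, 3 were higher and 2 lower without these libraries (8.91% and 10.1% of all genes). With the block as well, 11 were higher and 4 lower (14.5% and 15.4% of all genes).

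Replacement and variant histones outside the clusters mostly carry introns and poly(A) tails, and many, though not all, are made throughout the cell cycle. They were represented by 12 tested of 18 measured genes. None was called between genotypes without the block, and with the block H1F0 was higher (0.21, SE 0.06, adjusted p = 0.0305) and CENPA lower (-0.26, SE 0.08, adjusted p = 0.0304). Of all genes 11.8% were higher and 12.5% lower with the block. H1F0 encodes the linker histone H1.0 of slowly dividing cells, and CENPA the centromeric H3. Without the libraries numbered 1, 2 were lower and 1 higher, with or without the block. Of all genes 15.4% were lower and 14.5% higher with it, and 10.1% and 8.91% without it. Between replicates 2 and 1, 6 of the 12 were higher and 2 lower in replicate 2, against 21.5% and 18.9% of all genes. H2AFX, whose mRNA can also end in the stem-loop, was higher by 0.88 (SE 0.08), H2AFZ by 0.75 (SE 0.07) and H3F3B by 0.48 (SE 0.07) on the log2 scale. H1F0 was lower in replicate 2 by a log2 fold change of -0.46 (SE 0.08), with 233 CPM in WT and 242 CPM in PARP3-/- replicate 1 and 152 to 196 CPM in the other 4 libraries. HIST1H1A and HIST1H1B had the opposite direction in the same libraries.

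The machinery that transcribes and processes histone mRNA was measured with 40 genes. None was called between genotypes without the block, and 3 were lower and 2 higher with it (12.5% and 11.8% of all genes). Without the libraries numbered 1, 1 was lower and 2 higher (10.1% and 8.91% of all genes). With the block as well, 5 were lower and 2 higher (15.4% and 14.5% of all genes). SLBP read 52.8, 115 and 104 CPM in WT and 65.3, 112 and 108 CPM in PARP3-/- cells, with a log2 fold change between genotypes of 0.07 (SE 0.32, adjusted p = 0.966) and of 0.95 (SE 0.08) in replicate 2 over 1. NPAT, the coactivator that gathers at the histone clusters, was between 18.5 and 22.3 CPM in all 6 libraries. LSM10 and LSM11, proteins of the U7 particle that cuts histone pre-mRNA, had log2 fold changes between genotypes of -0.09 and -0.15 and were not called. Of the 40, 21 were higher and 3 lower in replicate 2 over 1, against 21.5% and 18.9% of all genes. Among 33 histone chaperones 1 was called without the block, as lower (3.33% of all genes). NAP1L2, a nucleosome assembly protein gene on chromosome X, had 38, 59 and 51 counts in WT and 0, 1 and 0 counts in PARP3-/- replicates 1 to 3 (adjusted p = 0.000825). NAP1L1, a relative of NAP1L2, read 622, 605 and 606 CPM in WT and 798, 774 and 763 CPM in PARP3-/- cells without overlap (log2 fold change 0.35, SE 0.08, adjusted p = 0.0649, and 0.000876 with the block). With the block 7 chaperones were higher and 2 lower, against 11.8% and 12.5% of all genes. Without the libraries numbered 1, 5 were higher and 3 lower (8.91% and 10.1% of all genes). With the block as well, 6 were higher and 3 lower (14.5% and 15.4% of all genes). ASF1B, CHAF1A and CHAF1B, which deposit H3 and H4 behind the replication fork, differed between replicates 2 and 1 by 1.34, 1.05 and 1.05. The lists overlap in MCM2, SSRP1, SLBP and CHAF1B.

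The genes between the histone genes were looked at in the same contrast. Of 13 tested protein-coding genes that lie inside the HIST1 cluster and are no histone genes, 1 was higher (ABT1) and 4 were lower in replicate 2 over 1. Of all genes 21.5% were higher and 18.9% lower. The median log2 fold change of these 13 genes was -0.09, while 42 of the 48 tested HIST1 members were higher. BTN3A1, an immune gene in the gap of the cluster, was lower (-0.67, adjusted p = 0.00017), and HMGN4, a nucleosome binding protein gene, was not called (-0.08, adjusted p = 0.363). In the 33 tested genes flanking the cluster, 6 were higher and 7 lower, against 21.5% and 18.9% of all genes. Between genotypes without the block, 0 of 13 inside genes and 1 of 33 flanking genes was called, ALDH5A1, which was lower (-0.61, adjusted p = 0.0216). Of all genes 3.33% were lower in that fit.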

How the data were processed

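Libraries of both genotypes were read as single 50-base reads from stranded, ribosomal RNA-depleted libraries. The authors deposited raw counts per Ensembl 91 gene, made with cutadapt 1.10, Bowtie2 2.2.8 (removal of ribosomal and spike-in reads), STAR 2.5.3a on hg38 and HTSeq 0.6.1p1 in union mode, which by default drops reads on several genes or places. A further 12 columns of values normalized by the authors, with or without scaling by length, and the authors' own fold changes and p-values were not used. The deposited length column (other, bases) gives the median transcript length. Groups and replicate numbers come from the labels.

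Here genes were filtered with filterByExpr (minimum count 10), normalized by TMM and tested with edgeR 4.0.16 (quasi-likelihood, R 4.3.3), with p-values adjusted by Benjamini-Hochberg over all tested genes. DESeq2 1.42.0 was an alternative. The block is the replicate number. Deviations from the genotype means correlated at 0.788, 0.68 and 0.383 in the 3 pairs of equal number, which set the libraries numbered 1 apart. Numbers 2 and 3 were not told apart by this, since WT 2 and PARP3-/- 3 correlated at 0.575 and WT 3 and PARP3-/- 2 at 0.367. Replicates of a genotype differed beyond counting noise in every pair. Without the block, p-values measure the spread between these replicates, whose clone is not given in the sources used here. With the block, and between replicate numbers, they measure the spread left after genotype and replicate number are fitted. Coding sequences (GENCODE 44) were cut into 50-base windows and searched in hg38. 65 members were matched by Ensembl ID and 3 by older symbol. Fits were tested on simulated data. Named genes were those of highest level per kb of gene span or extreme fold change in each class, those outside chromosome 6, those with polyadenylated mRNA, those called with the block and fixed genes of the lists. Genes named for the replicate numbers were chosen after their values were seen. The members, lists and tests were chosen with earlier results of these data known.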

Additional observations from a re-analysis of the deposited data

How the results depend on the processing

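The absence of a called member in the fit without the block held under DESeq2, median of ratios size factors, all genes kept whatever their counts, a floor of 50 on the mean count, a stricter rule (adjusted p under 0.001 and log2 fold change beyond 1) and each library left out in turn (0 lower and 0 higher in each). The replicate block changed it, to 8 lower and 2 higher, DESeq2 with the block gave 3 lower and 1 higher, leaving out both libraries numbered 1 gave 2 lower and 1 higher, and doing so with the block 21 lower and 6 higher. Over all genes these 4 fits called 12.5% lower and 11.8% higher, 6.71% and 6.28%, 10.1% and 8.91%, and 15.4% and 14.5%. The cause was not tested. The last of these fits and the block with DESeq2 were chosen after seeing the data, as was the comparison of replicate numbers, whose counts (48, 47, 44 and 0) were the same with median of ratios size factors. The median log2 fold change of the members ran from -0.27 without WT replicate 1 to 0.07 without WT replicate 2, so its sign rests on which library is present, and the summed levels moved by less than 1 SD with plain library totals, with only the filtered members and with each library left out. With the block and DESeq2 the sign turned for HIST1H4J (0.017), HIST2H2AB (0.0017), HIST2H2AC (0.0026) and CCNE2 (0.041, and 0.0073 in edgeR with the block), all near 0. Of the genes named by the rule, the log2 fold change of the following changed sign when 1 library was left out. With WT 1 left out for the lower and PARP3-/- 1 for the higher value, it ran from -0.56 to 0.052 for HIST1H1A, -0.34 to 0.071 for HIST1H1B, -0.29 to 0.079 for HIST1H2BC, -0.35 to 0.018 for HIST1H4A, -0.33 to 0.020 for HIST1H4D, -0.34 to 0.034 for HIST1H4H, -0.40 to 0.030 for HIST1H4L, -0.41 to 0.083 for HIST2H3D, -0.21 to 0.28 for SLBP, -0.42 to 0.053 for H2AFX, -0.22 to 0.17 for H2AFZ and -0.037 to 0.22 for H3F3B. With WT 1 left out for the lower and WT 2 for the higher value, it ran from -0.26 to 0.089 for HIST1H2AE, -0.43 to 0.080 for HIST1H2AH, -0.30 to 0.13 for HIST1H2BB, -0.27 to 0.057 for HIST1H2BD, -0.27 to 0.10 for HIST1H2BK, -0.27 to 0.11 for HIST1H3C, -0.37 to 0.020 for HIST1H4C, -0.12 to 0.11 for HIST2H2AB, -0.061 to 0.067 for HIST2H2AC, -0.41 to 0.21 for PCNA and -0.47 to 0.31 for CCNE2. With PARP3-/- 2 left out for the lower and WT 2 for the higher value, it ran from -0.16 to 0.034 for HIST1H2AC and -0.19 to 0.098 for HIST1H2BJ. With PARP3-/- 2 left out for the lower and PARP3-/- 1 for the higher value, it ran from -0.014 to 0.38 for HIST1H2AL and -0.25 to 0.038 for HIST2H2BF. With PARP3-/- 1 left out for the lower and WT 1 for the higher value, it ran from -0.17 to 0.82 for HIST1H1T. With WT 1 left out for the lower and WT 3 for the higher value, it ran from -0.21 to 0.11 for HIST1H4J. HIST3H2A, HIST3H2BB, HIST4H4 and HIST1H3J kept their sign with each library left out, and HIST3H2A ranged from -0.34 to -0.27. Depth limits what can be said of the 12 members below the filter, and 3 libraries per genotype limit the test without the block, whose median standard error exceeds the median difference.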

Other observations

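The table also holds 15 HIST genes not annotated as protein-coding, of which 2 passed the filter on low counts and 13 did not. HIST1H2APS5, an H2A pseudogene, was higher in replicate 2 than in replicate 1 (log2 fold change 1.49, adjusted p = 0.000817 in edgeR with the replicate number in the model), the direction of most coding members. HIST3H2BA had a log2 fold change of 0.53 in the same contrast (adjusted p = 0.431). Between genotypes neither was called, at -0.03 and 0.49. Short reads of pseudogenes and their coding relatives can be exchanged, and their part in these values was not tested.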
